A study of Mus musculus with 9 samples.

Results

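The comparison of Runx2ko with Runx2wt in mouse bone marrow cells transformed by KMT2A-MLLT1 used 6 of the 9 libraries of the series, 3 per group, taken by their labels. It asked what loss of Runx2 changes in cells that the fusion has already transformed. The 3 remaining libraries, BM progenitor RNA from before the first replating, were in the statistical fit and served to estimate the spread. All cells were lineage-depleted marrow of the genotype Runx2fl/fl CreERT2tg/+, that is with floxed Runx2 and 1 transgenic copy of a Cre recombinase that needs tamoxifen to act. Both groups had been given a retrovirus for KMT2A-MLLT1 with eGFP and had gone through serial plating in methylcellulose and then suspension culture. For both groups the labels give the cytokines IL-3 and IL-6 at 10 ng/ml each, SCF at 50 ng/ml and a replating time of 7 days. Runx2wt cells were given ethanol as a control. Runx2ko cells were given 400 nM 4-hydroxytamoxifen (4-OHT, an active tamoxifen metabolite) during 24 hours. The time from that treatment to RNA extraction and the promoter that drives Cre are not stated in the labels. Effects of 4-OHT, of active Cre and of Runx2 loss cannot be told apart, because all 3 Runx2ko libraries share them and no Runx2wt library does.

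RUNX2 belongs to a family of transcription factors that bind the DNA core TGTGGT through a Runt domain, together with the partner protein CBFB. It is best known for driving bone formation, while its relative RUNX1 is the main RUNX factor of blood stem and progenitor cells. KMT2A-MLLT1, also called MLL-ENL, joins the DNA-binding part of a histone methyltransferase to a protein of the transcription elongation machinery. Cells transformed by it keep genes of the Hoxa cluster and Meis1 active, and marrow cells transformed in this way usually resemble immature myeloid cells.

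Expression was measured by QuantSeq, which reads a short tag near the 3′ end of each transcript, so a count does not depend on transcript length. Values are CPM, the count of a gene scaled to a common library size. The 9 libraries held 3118594 to 5348177 counts. Of the Runx2ko libraries, replicate 1 was unlike all the others. Across genes, its log2 CPM correlated with the other 5 transformed libraries at 0.777 to 0.802, while the remaining pairs correlated at 0.929 to 0.955. In this library 278 genes lay at least 2 log2 units above each other transformed library and 450 at least that far below, against 2 to 8 and 16 to 40 genes in the others. Tests and list counts are therefore given with all 6 libraries and without Runx2ko replicate 1.

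Sex-linked genes also differed among libraries. Xist, the RNA that silences an X chromosome in female cells, was at 0, 0.554 and 21.4 CPM in Runx2wt replicates 1 to 3 and at 0.324, 51.0 and 56.6 CPM in Runx2ko replicates 1 to 3. Ddx3y, a gene of the Y chromosome, was at 118.7, 74.6 and 91.5 CPM in Runx2wt against 167.6, 80.7 and 62.3 CPM in Runx2ko. Libraries with Xist thus also held Y-linked RNA. Without Runx2ko replicate 1, Xist was higher in both Runx2ko libraries than in any Runx2wt library, so this trait moves with the group. Its part in the results below was not tested.

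**Figure D1:**
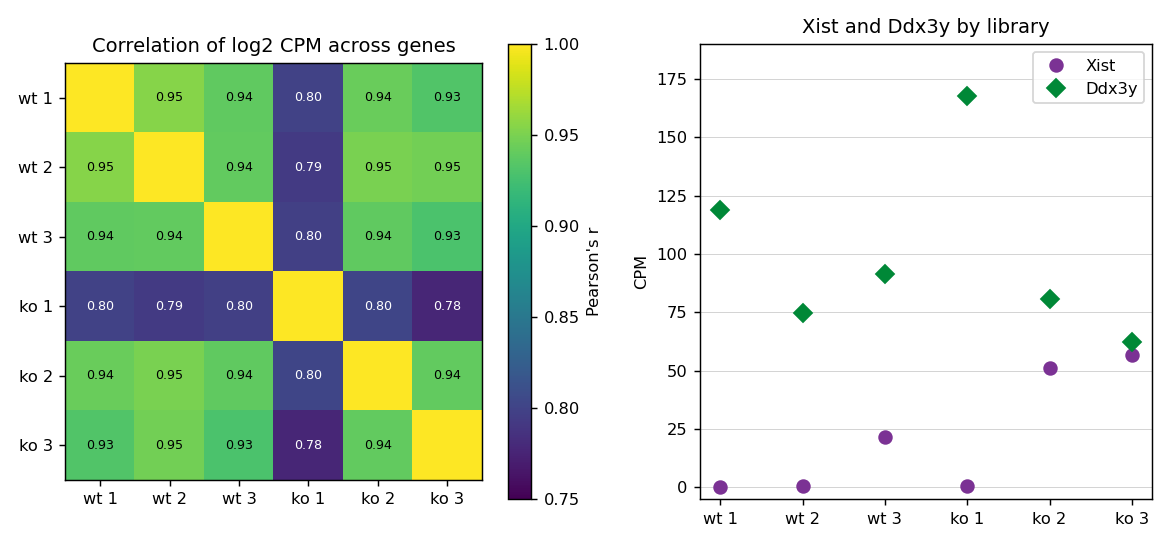
Left, Pearson's r of log2 CPM across genes for each pair of transformed libraries, where wt and ko stand for Runx2wt and Runx2ko and the number for the replicate. Right, CPM of Xist and Ddx3y in each library. Runx2ko replicate 1 has the lowest correlations, and Xist reaches 21.4 CPM or more in Runx2wt replicate 3 and Runx2ko replicates 2 and 3.

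T-ALL cells are named as the RNA source in the extraction text, while the sample labels name marrow cells and the series title names T-ALL as its subject. Of 29 T and B cell genes, 6 passed the filter on low counts with all libraries and 9 without Runx2ko replicate 1. The summed level of the list was 72.9 to 118.9 CPM in Runx2wt and 136.8 to 187.1 CPM in Runx2ko. Cd3e, a subunit of the T cell receptor complex, had no count in any Runx2wt library and 0.381 CPM at most in Runx2ko, and Ptcra, a gene of immature T cells, had none in any transformed library. Genes of neutrophil primary granules summed to 9069 to 13990 CPM in Runx2wt and 3510 to 13900 CPM in Runx2ko.

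Runx2 itself (ENSMUSG00000039153, on the minus strand of GRCm38 chromosome 17 from 44495987 to 44814797), the floxed gene, was counted at 159.4, 178.8 and 131.0 CPM in Runx2wt against 21.02, 120.1 and 134.7 CPM in Runx2ko. Replicates 2 and 3 of Runx2ko thus lay at or just below the Runx2wt range and only replicate 1 was far lower. The difference was -0.76 log2 units (SE 0.51, 95% interval -1.91 to 0.38) with all libraries and -0.30 (SE 0.19, interval -0.71 to 0.11) without replicate 1, and neither passed (edgeR adjusted p = 0.725 and 0.741). Which exon is floxed is not stated, and 3′ tags can lie outside a deleted part, so these counts do not check the deletion. Directions given below are those of libraries labelled Runx2ko.

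Runx1 was higher in Runx2ko. It was counted at 47.8, 74.8 and 55.1 CPM in Runx2wt against 175.0, 106.9 and 132.5 CPM in Runx2ko, with no overlap between the groups. The log2 fold change was 1.22 (SE 0.24) with all libraries and 1.02 (SE 0.22) without Runx2ko replicate 1. It passed with DESeq2 in both fits (adjusted p = 0.00846 and 0.0205) and not with edgeR (adjusted p = 0.511 and 0.217). DESeq2 called 0.41% and 0.521% of all genes in these fits. The BM progenitor libraries held 105.5, 120.3 and 145.7 CPM, a range that overlaps that of Runx2ko. Runx3, the third family member, was at 112.9, 53.2 and 133.8 CPM in Runx2wt against 250.4, 129.8 and 127.4 CPM in Runx2ko and did not pass in either fit (edgeR adjusted p = 0.651 and 0.833). Cbfb, the shared partner, was at 255.8 to 261.0 CPM in Runx2wt against 286.9, 236.4 and 228.7 CPM in Runx2ko and did not pass either. Without Runx2ko replicate 1 it lay below every Runx2wt library.

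A promoter of each RUNX gene carries the RUNX core, which is shown here because Runx1 was the family member that differed. Windows of 300 bases that end 50 bases after each annotated start were taken from RefSeq (GRCm38.p6) and searched on both strands for TGTGGT and TGCGGT, 2 forms of the core that do not overlap each other. In the stretches below, written 5′ to 3′ on the strand of the gene, capitals mark a core in either direction (ACCACA is TGTGGT read on the opposite strand).
Runx1: taaacaACCACAgaACCACAagttgggt
Runx2: caaacaACCACAgaACCACAagTGCGGTgc
Runx3: ccctcaACCACAgaACCACAaggccaggcc
The Runx1 stretch is chr16:92826025-92826052 on the minus strand, 23 to 50 bases after the start. The Runx2 stretch is chr17:44814581-44814610 on the minus strand, 18 to 47 bases after the start. The Runx3 stretch is chr4:135120505-135120534 on the plus strand and lies upstream of the start. RefSeq gives Runx1 and Runx3 2 windows each, and the other window of each gene holds neither form of the core. The pair of cores spaced as here was found in 4 of 32851 windows (0.0122%), those of Runx1, Runx2, Runx3 and Gm16225. At least 1 core of either form was in 22.4% of windows. Of the 5 genes called by edgeR without Runx2ko replicate 1 (below), Hpgd, Cgnl1 and Gm1673 had a window, and neither form was in any of these. Of the genes called by DESeq2, a core was in 6 of 46 windows (13%) with all libraries and in 13 of 65 windows without that replicate. A match is a description of the sequence and not of binding.

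Across all genes, the differences between the groups were few. With all 6 libraries no gene of 11196 tested passed at an edgeR adjusted p under 0.05, 886 genes (7.91%) had an unadjusted p under 0.05 (5.14% higher and 2.78% lower in Runx2ko), and DESeq2 called 48 of 11718 genes (0.41%), 35 higher and 13 lower in Runx2ko. Without Runx2ko replicate 1, edgeR called 5 of 11636 genes (0.043%), 2 higher (0.0172%) and 3 lower (0.0258%), and 919 (7.9%) had an unadjusted p under 0.05 (4.17% higher and 3.73% lower). DESeq2 then called 67 of 12854 genes (0.521%), 38 higher and 29 lower. Of the 48 genes that DESeq2 called with all libraries, 14 had at least 4 times the CPM in Runx2ko replicate 1 that they had on average in replicates 2 and 3. Groups did not overlap for 1084 genes (9.68%) with all libraries and for 2236 genes (19.2%) without that replicate. The median log2 fold change over all genes was 0.013 and -0.014.

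**Figure D2:**
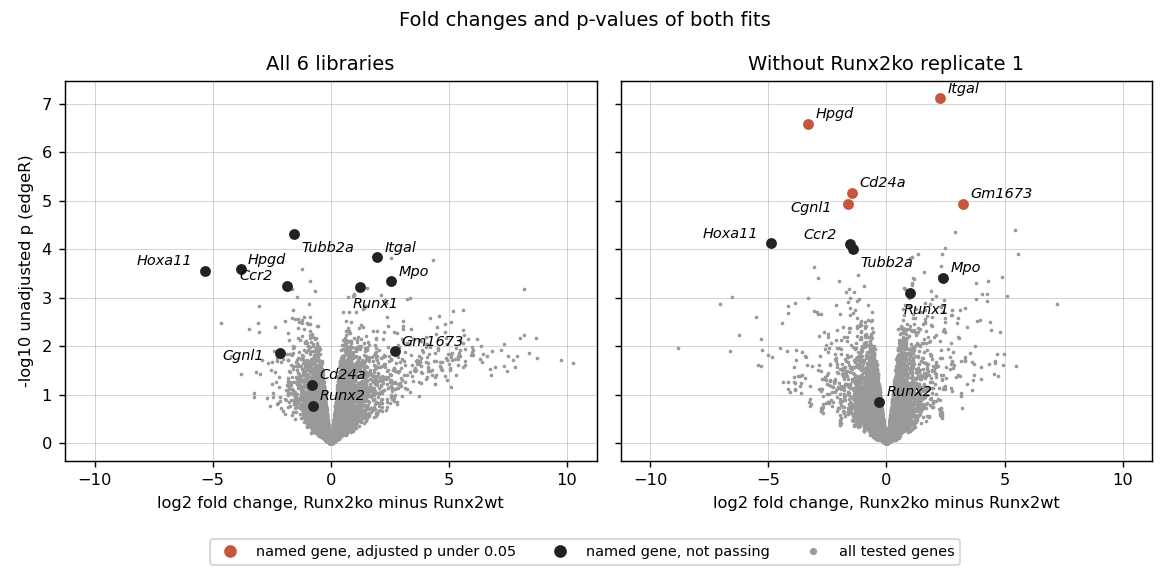
Log2 fold change of Runx2ko minus Runx2wt (horizontal) against -log10 of the unadjusted edgeR p (vertical) for all tested genes, with all 6 libraries (left) and without Runx2ko replicate 1 (right). Large red points are labelled genes with an adjusted p under 0.05 (0 on the left, 5 on the right), black points are labelled genes that did not pass, and grey points are all tested genes.

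Itgal was the gene with the smallest p without Runx2ko replicate 1. It encodes the alpha subunit of LFA-1, the integrin by which leukocytes bind ICAM-1 on other cells (ENSMUSG00000030830, GRCm38 chromosome 7, 127296260 to 127335138, plus strand). It was counted at 82.8, 101.4 and 68.4 CPM in Runx2wt against 168.2, 409.3 and 407.3 CPM in Runx2ko. The lowest Runx2ko library lay above the highest Runx2wt library, and BM progenitor libraries, at 97.3, 81.7 and 101.5 CPM, lay at the level of Runx2wt. The difference was 2.28 log2 units (SE 0.19, edgeR adjusted p = 9e-04) without replicate 1 and 1.96 (SE 0.32, edgeR adjusted p = 0.442, DESeq2 adjusted p = 3.11e-05) with all libraries. Within Runx2wt, the library with the most Xist, replicate 3, held the least Itgal. Within Runx2ko, replicate 1, nearly without Xist, held the least Itgal, though more than any Runx2wt library. The part of Xist-bearing cells in the Itgal values was not tested.

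Hpgd was lower. It encodes 15-hydroxyprostaglandin dehydrogenase, which inactivates prostaglandins (ENSMUSG00000031613, chromosome 8, 56294585 to 56321043, plus strand). It was counted at 93.7, 125.0 and 175.3 CPM in Runx2wt against 0.647, 13.7 and 12.7 CPM in Runx2ko. The groups lay far apart, and BM progenitor libraries held 0.183 to 0.637 CPM, near the level of Runx2ko replicate 1. The difference was -3.31 log2 units (SE 0.31, edgeR adjusted p = 0.0015) without replicate 1 and -3.82 (SE 0.68, edgeR adjusted p = 0.442, DESeq2 adjusted p = 2.33e-05) with all libraries. Within Runx2wt, the most Hpgd was in replicate 3, the library with the most Xist there. Within Runx2ko, the least was in replicate 1, nearly without Xist. The part of Xist-bearing cells was not tested for Hpgd either.

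Cgnl1, which encodes a protein of cell junctions (chromosome 9, 71626509 to 71771602, minus strand), was at 107.6, 98.4 and 138.3 CPM in Runx2wt against 1.62, 36.2 and 38.8 CPM in Runx2ko, with no overlap. Its difference was -1.62 log2 units (SE 0.22, edgeR adjusted p = 0.0276) without Runx2ko replicate 1 and -2.15 (SE 0.71, edgeR adjusted p = 0.579) with it. Without Runx2wt replicate 1 as well, the edgeR adjusted p was 0.0585. Cd24a, a small surface glycoprotein that marks immature blood cells (chromosome 10), was at 146.0, 181.8 and 154.1 CPM in Runx2wt against 164.3, 56.0 and 61.8 CPM in Runx2ko. Only Runx2ko replicates 2 and 3 thus lay below the Runx2wt values, and the difference was -1.45 log2 units (SE 0.19, edgeR adjusted p = 0.0266) without that library and -0.78 (SE 0.37, edgeR adjusted p = 0.649) with it. Gm1673, a predicted gene on chromosome 5, was at 6.02, 4.43 and 1.95 CPM in Runx2wt against 1.94, 29.5 and 50.7 CPM in Runx2ko. It showed the same split, with a difference of 3.23 log2 units (SE 0.44, edgeR adjusted p = 0.0276) without replicate 1 and 2.70 (SE 0.88, edgeR adjusted p = 0.579) with it. When the fit without replicate 1 was run on the 5 transformed libraries alone, Itgal and Hpgd passed (edgeR adjusted p = 0.0248 each) and the other 3 genes did not (edgeR adjusted p = 0.23 to 0.24).

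**Figure D3:**
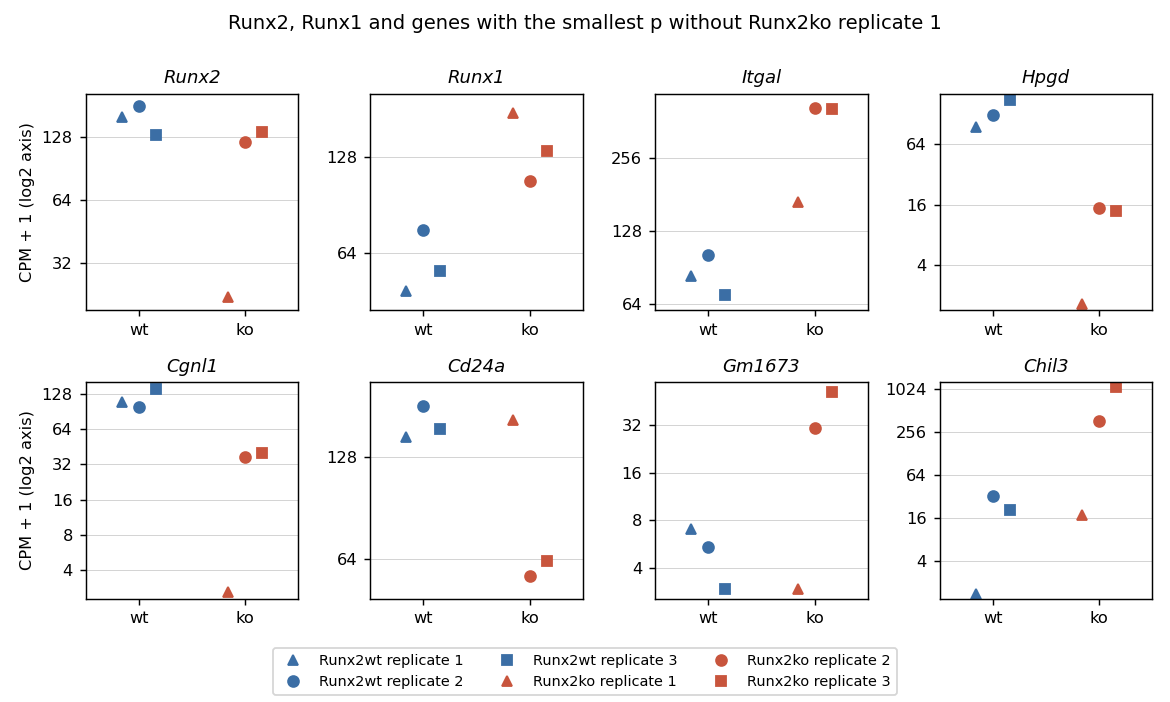
CPM plus 1 on a log2 axis of Runx2, Runx1 and the 6 genes with the smallest p without Runx2ko replicate 1, for each library of Runx2wt (wt, blue) and Runx2ko (ko, red), with a symbol for each replicate number. Runx2ko replicate 1 (triangle) lies with Runx2wt for Cd24a and Gm1673 and far below the other Runx2ko libraries for Runx2, Hpgd, Cgnl1 and Chil3.

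Genes of the same pathways were counted next. Of 24 tested genes of leukocyte integrins and adhesion, 1 higher and 1 lower had groups without overlap with all libraries, those being Itgal and Cgnl1, where 4.95% of all genes were higher and 4.73% lower without overlap. Of 25 tested without Runx2ko replicate 1, 1 was higher and 2 were lower without overlap (9.55% and 9.67% of all genes). Itgal, Cgnl1 and Cd24a were the members that edgeR called, where it called 0.043% of all genes. The list was chosen with earlier results of these data known, so these calls are no separate support for a pathway. Itgam, which pairs with the same beta chain as Itgal (a gene picked after seeing its values), was at 104.6, 220.3 and 154.1 CPM in Runx2wt against 16.8, 174.5 and 300.3 CPM in Runx2ko, with overlap. The list's median log2 fold change was 0.132 with all libraries and 0.072 without Runx2ko replicate 1. Of 23 tested genes of prostaglandin and leukotriene metabolism, 1 higher and 1 lower did not overlap with all libraries, where 4.95% and 4.73% of all genes did not. Without Runx2ko replicate 1 the counts were 4 and 3, against 9.55% and 9.67% of all genes. The median of this list was 0.075 and 0.000. Alox5, the lipoxygenase that starts leukotriene synthesis, was the higher one with all libraries (picked after seeing its values). It was at 35.9 to 44.3 CPM in Runx2wt against 277.5, 46.4 and 54.8 CPM in Runx2ko.

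Hoxa11 and Hoxa10, of the Hoxa cluster that KMT2A fusions keep active, were lower in Runx2ko in both fits of DESeq2. Hoxa11 (chromosome 6, 52242106 to 52245810, minus strand) was counted at 17.7, 20.5 and 16.4 CPM in Runx2wt against 0, 0 and 1.36 CPM in Runx2ko. Its log2 fold change was -5.31 (SE 0.95) with all libraries and -4.89 (SE 0.81) without Runx2ko replicate 1, which passed with DESeq2 (adjusted p = 9.31e-06 and 5.35e-06) and not with edgeR (adjusted p = 0.442 and 0.102). The Runx2ko libraries held 0, 0 and 5 counts, so the size of the fold rests on replicate 3. Without that replicate the fitted value was -9.31 (edgeR adjusted p = 0.18), which depends on the prior count and is no bound. The antisense gene Hoxa11os overlaps Hoxa11, and the labels do not say whether counting used strand.

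Hoxa10 (chromosome 6, 52231197 to 52240854, minus strand) was at 114.4, 137.2 and 144.1 CPM in Runx2wt against 28.8, 52.3 and 49.9 CPM in Runx2ko. The groups did not overlap, and the log2 fold change was -1.59 (SE 0.37, DESeq2 adjusted p = 0.00786) and -1.37 (SE 0.30, DESeq2 adjusted p = 0.000461) without replicate 1. It did not pass with edgeR (adjusted p = 0.579 and 0.217). Hoxa10 in both groups stayed well above the BM progenitor libraries, which held 0.809 to 3.29 CPM. Hoxa9, the Hox gene best known for sustaining such leukaemias, was at 463.0, 516.6 and 434.8 CPM in Runx2wt against 168.8, 340.8 and 357.8 CPM in Runx2ko, again without overlap, but did not pass with edgeR or DESeq2 (edgeR adjusted p = 0.590 and 0.654). Hoxa5, chosen after its values were seen, was at 108.8 to 162.7 CPM in Runx2wt against 34.9, 87.7 and 87.3 CPM in Runx2ko. Meis1, the Hox partner, overlapped between groups, at 147.5 to 259.4 CPM in Runx2wt and 139.5 to 266.2 CPM in Runx2ko. Of 27 tested fusion target genes of 33, 1 higher (Runx1) and 4 lower did not overlap with all libraries, against 4.95% higher and 4.73% lower over all genes. Without Runx2ko replicate 1 the counts were 1 and 6, against 9.55% and 9.67%. The list's median was -0.384 and -0.163.

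Among chemokine receptors and ligands of monocytes, Ccr2 and Ccl4 were lower in Runx2ko in both fits of DESeq2. Ccr2, the receptor by which monocytes leave the marrow (chromosome 9, 124101950 to 124113557, plus strand), was counted at 117.2, 112.2 and 81.5 CPM in Runx2wt against 13.3, 29.9 and 42.3 CPM in Runx2ko. All Runx2ko libraries lay below all Runx2wt libraries, with a log2 fold change of -1.86 (SE 0.37) and -1.53 (SE 0.26) without Runx2ko replicate 1. DESeq2 called it in both fits (adjusted p = 0.00157 and 2.58e-05) and edgeR in neither (adjusted p = 0.511 and 0.102). Ccr1, a receptor for CCL3 and related ligands, was at 44.0, 47.4 and 104.6 CPM in Runx2wt against 28.5, 27.0 and 28.2 CPM in Runx2ko, and did not pass (edgeR unadjusted p = 0.00322 and 0.00379). Ccl4, a chemokine that attracts monocytes and other leukocytes, was at 205.3, 155.5 and 445.1 CPM in Runx2wt against 29.1, 87.2 and 94.6 CPM in Runx2ko, and DESeq2 called it in both fits (adjusted p = 0.0164 and 0.00689). EdgeR called Ccl4 in neither (adjusted p = 0.579 and 0.27).

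In 3 further members named here the groups did not overlap either. Ccl6 was at 1455 to 1779 CPM in Runx2wt against 595.7 to 1152 CPM in Runx2ko, and Ccl3 at 108.4 to 208.4 and 65.0 to 84.6 CPM. Ccl2, the ligand of CCR2, was at 82.6 to 157.3 and 16.8 to 79.4 CPM. None of these passed in either test, and Ccl6 was chosen after its values were seen. Ccl9 was the member that Runx2ko replicate 1 turned round. It was at 238.2, 421.3 and 332.2 CPM in Runx2wt against 831.3, 65.5 and 157.7 CPM in Runx2ko, with a log2 fold change of 0.09 (SE 0.72) with all libraries and -1.57 (SE 0.34, DESeq2 adjusted p = 0.00117, edgeR adjusted p = 0.212) without that library. Cxcr4, which holds progenitors in the marrow, was at 154.6 to 161.9 CPM in Runx2wt against 25.6, 201.5 and 220.6 CPM in Runx2ko and did not pass in either test.

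Of 19 tested members of 21 in the chemokine list, none was higher and 7 were lower without overlap with all libraries, and 2 were higher and 8 lower without Runx2ko replicate 1, to be read against the shares of 4.95% and 4.73%, and 9.55% and 9.67%, of all genes. The median was -0.758 and -0.802. The mean log2 CPM of the list relative to Runx2wt was -0.54, 0.16 and 0.38 in Runx2wt and -1.18, 0.04 and -0.38 in Runx2ko. By this measure Runx2ko replicates 2 and 3 lay inside the Runx2wt range. Monocyte and macrophage markers were likewise lowest in Runx2ko replicate 1. Their mean log2 CPM relative to Runx2wt was -2.36 in replicate 1 and 0.03 and -0.02 in replicates 2 and 3, within the range of -0.34 to 0.38 in Runx2wt. Lyz2, lysozyme of monocytes and granulocytes, chosen after its values were seen, was at 3743, 5172 and 10730 CPM in Runx2wt against 253.9, 3417 and 6922 CPM in Runx2ko. Csf1r, the receptor for M-CSF, was at 88.4, 139.4 and 321.9 CPM and at 9.70, 116.1 and 219.5 CPM, so that replicates 2 and 3 lay inside the Runx2wt range. The part of monocyte content in the chemokine values was not tested. In bulk RNA, fewer cells of a type and less RNA per cell cannot be told apart.

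**Figure D4:**
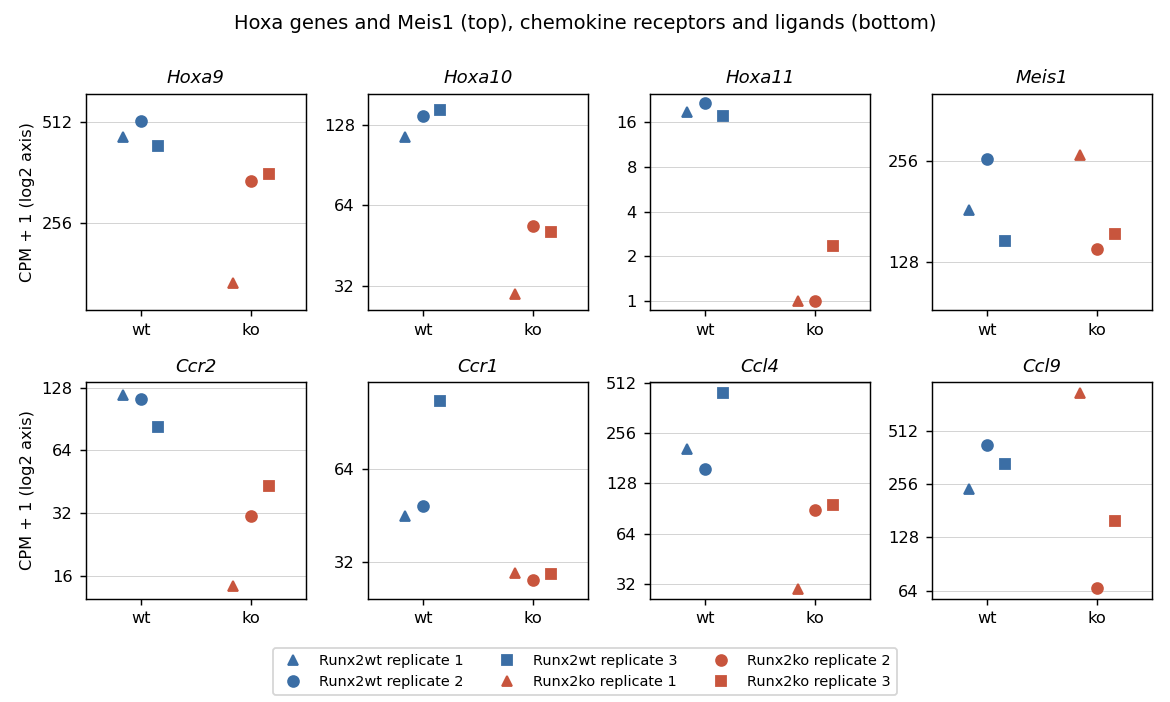
CPM plus 1 on a log2 axis of Hoxa9, Hoxa10, Hoxa11 and Meis1 (top) and of Ccr2, Ccr1, Ccl4 and Ccl9 (bottom) in each library of Runx2wt (wt, blue) and Runx2ko (ko, red). The groups do not overlap for the 3 Hoxa genes, Ccr2, Ccr1 and Ccl4, and Runx2ko replicate 1 (triangle) has the highest Ccl9 at 831.3 CPM.

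Genes of late neutrophils were higher in Runx2ko replicates 2 and 3 than in replicate 1. Of 29 tested members of 30, 2 were higher and none lower without overlap with all libraries, where 4.95% of all genes were higher. Without replicate 1, 12 were higher and none lower, where 9.55% of all genes were higher without overlap. The median log2 fold change was 0.833 and 1.083. The mean level of the list spread widely within groups, at -0.88, 1.09 and -0.22 in Runx2wt and -1.03, 1.52 and 1.95 in Runx2ko. Chil3, a chitinase-like protein of myeloid cells, was at 0.376, 31.3 and 19.5 CPM in Runx2wt against 16.5, 365.2 and 1084 CPM in Runx2ko, and passed with DESeq2 without replicate 1 (adjusted p = 0.0181, edgeR adjusted p = 0.0741). Ltf, lactoferrin of secondary granules, was at 0, 1.11 and 0 CPM in Runx2wt against 3.24, 3.05 and 2.71 CPM in Runx2ko, and DESeq2 called it in both fits (adjusted p = 0.0339 and 0.0423). These Ltf values rest on 0, 4 and 0 counts in Runx2wt and 10, 16 and 10 counts in Runx2ko, and edgeR did not call it (adjusted p = 0.579 and 0.309). S100a8 and S100a9, which form calprotectin and were chosen after their values were seen, spread widely within Runx2wt. S100a8 was at 127.0, 1443 and 303.2 CPM there and at 39.8, 2461 and 4452 CPM in Runx2ko, and S100a9 at 9.22, 655.4 and 64.5 CPM and at 42.1, 1218 and 2033 CPM. Neither passed. Stfa1, a stefin of neutrophils, was at 17.7 to 34.8 CPM in Runx2wt against 3.56, 71.6 and 175.1 CPM in Runx2ko, and Csf3r, the receptor for G-CSF, at 6.77 to 19.7 CPM and at 1.94, 24.9 and 41.5 CPM. Stfa1 and other stefins belong to a multigene family whose members may share tags.

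Mpo, the myeloperoxidase of primary granules, was higher in all Runx2ko libraries. It was at 12.8, 10.3 and 5.01 CPM in Runx2wt against 67.0, 21.3 and 80.2 CPM in Runx2ko, with a log2 fold change of 2.56 (SE 0.49, DESeq2 adjusted p = 6.28e-05) and 2.39 (SE 0.48, DESeq2 adjusted p = 0.0209) without replicate 1. It did not pass with edgeR (adjusted p = 0.511 and 0.183). BM progenitor libraries held 2168 to 3055 CPM of Mpo, far above both groups. Elane, neutrophil elastase of the same granules, was at 472.8, 551.5 and 100.4 CPM in Runx2wt against 2.91, 518.2 and 895.5 CPM in Runx2ko, with overlap. Of 18 tested primary granule genes, 2 were higher and none lower without overlap in each fit, where 4.95% and 9.55% of all genes were higher, and the median was 0.108 and 0.331. Prg2, the major basic protein of eosinophils, was at 0.376, 2.22 and 2.50 CPM in Runx2wt against 16.5, 4.76 and 5.42 CPM in Runx2ko and passed with DESeq2 (adjusted p = 0.0118 and 0.0373). These values rest on 2, 8 and 9 counts in Runx2wt and 51, 25 and 20 counts in Runx2ko. BM progenitor libraries held 1142 to 1556 CPM of Prg2. EdgeR did not call Prg2 (adjusted p = 0.579 and 0.353). The late neutrophil and Xist values are highest in the same 2 libraries, Runx2ko replicates 2 and 3, while within Runx2wt replicate 2 held the most S100a8 and replicate 3 the most Xist. The part of Xist-bearing cells in this pattern was not tested.

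Genes of cell division had negative fold changes in nearly all members, though few passed. Of 51 tested mitosis and spindle genes of 52, 50 had a negative log2 fold change with all libraries and all 51 without Runx2ko replicate 1, where 5442 of 11196 and 6023 of 11636 genes did. The median was -0.630 and -0.639. None was higher and 6 were lower without overlap with all libraries, and 0 and 10 without replicate 1, where 4.73% and 9.67% of all genes were lower without overlap. Bub1, a kinase of the spindle checkpoint, was at 29.9, 14.4 and 13.9 CPM in Runx2wt against 5.82, 7.42 and 5.15 CPM in Runx2ko and passed with DESeq2 in both fits (adjusted p = 0.0128 and 0.0238; log2 fold change -1.66, SE 0.34, and -1.62, SE 0.38). Kif23, a kinesin of the central spindle, was at 61.7, 28.3 and 41.2 CPM and at 27.2, 22.1 and 12.5 CPM, and Cenpa, the histone of centromeres, at 237.4, 101.7 and 141.9 CPM and at 130.7, 76.3 and 76.2 CPM. DESeq2 called both without replicate 1 (adjusted p = 0.0181 and 0.0466). EdgeR called neither of them, nor Bub1, in either fit. The mean level of the list was 0.51, -0.35 and -0.16 in Runx2wt and -0.58, -0.22 and -1.22 in Runx2ko, so that 1 Runx2ko library, replicate 2, was inside the spread of Runx2wt. Members of 1 list in the same libraries are not independent measurements.

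DNA replication genes showed the same direction with a smaller difference without replicate 1. Of 46 tested, 44 were negative with all libraries and 39 without replicate 1, the median was -0.464 and -0.243, and 6 were lower without overlap in each fit, against 4.73% and 9.67% of all genes. Without replicate 1, 1 member was higher without overlap, against 9.55% of all genes. Rfc3, a subunit of the clamp loader, was at 28.9 to 33.5 CPM in Runx2wt against 13.9, 22.1 and 14.6 CPM in Runx2ko, and Mcm10, a replication initiation factor, at 50.7 to 55.9 CPM and at 14.2, 43.2 and 19.5 CPM. Neither passed. Tubb2a, a beta tubulin, had the smallest edgeR p of all genes with all 6 libraries. It was at 23.3, 18.3 and 21.4 CPM in Runx2wt against 5.82, 8.94 and 6.78 CPM in Runx2ko, with a difference of -1.53 log2 units (SE 0.22, edgeR adjusted p = 0.442, DESeq2 adjusted p = 0.00031) and -1.41 (SE 0.24, edgeR adjusted p = 0.102, DESeq2 adjusted p = 0.00551) without replicate 1. The CDK inhibitor Cdkn1a, a p53 target, was at 112.0, 169.6 and 261.5 CPM in Runx2wt against 244.5, 124.8 and 81.0 CPM in Runx2ko and did not pass in either test. Of 28 tested p53 targets, 14 had positive and 14 negative fold changes with all libraries (median -0.015), and of 29 tested without Runx2ko replicate 1, 9 were positive and 20 negative (median -0.193). Groups did not overlap for 1 higher and 1 lower of them with all libraries, where 4.95% and 4.73% of all genes did not. Without that replicate the counts were 1 and 7, where the shares of all genes were 9.55% and 9.67%.

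Nuclear genes of mitochondrial respiration had small negative fold changes. Of 76 tested oxidative phosphorylation genes, 66 were negative with all libraries and 65 without Runx2ko replicate 1, with medians of -0.231 and -0.178. Over all genes, 5442 of 11196 and 6023 of 11636 were negative. Groups did not overlap for 0 higher and 18 lower members, and for 2 and 27 without replicate 1. The shares over all genes were 4.95% higher and 4.73% lower, and 9.55% and 9.67% without replicate 1. Uqcr11, a subunit of complex III, was at 158.6, 169.3 and 121.6 CPM in Runx2wt against 88.6, 90.4 and 115.2 CPM in Runx2ko, and Cycs, cytochrome c, at 34.6 to 49.7 CPM and at 17.5 to 31.4 CPM. None of the 76 passed with edgeR or DESeq2. Mitochondrial ribosomal proteins (75 tested) gave 1 higher and 13 lower members without overlap, and 1 and 18 without replicate 1, with medians of -0.193 and -0.156. Proteasome subunits (41 tested) gave 0 and 7, and 0 and 11 without replicate 1, with medians of -0.184 and -0.172. Of 78 tested cytosolic ribosomal proteins, none was higher or lower without overlap with all libraries and 0 and 2 were without replicate 1, and the median was 0.010 and -0.006.

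Genes of the endoplasmic reticulum stress response had positive fold changes in 32 of 40 tested members with all libraries and in 31 of 40 without Runx2ko replicate 1. Over all genes, 5754 of 11196 and 5596 of 11636 were positive. As for the mitosis list, members measured in the same libraries are not independent. Of these 40 genes of the ATF4 and unfolded protein response, 4 were higher and 1 lower without overlap with all libraries and 5 and 1 without Runx2ko replicate 1, where 4.95% and 9.55% of all genes were higher without overlap. The median was 0.397 and 0.243. Hspa5, the chaperone BiP, was at 1644, 1474 and 1822 CPM in Runx2wt against 2195, 1907 and 4812 CPM in Runx2ko. Herpud1, which acts in degradation from the endoplasmic reticulum, was at 252.1 to 282.4 CPM and at 320.2, 345.8 and 547.5 CPM, and Chac1, an ATF4 target chosen after its values were seen, at 15.6 to 40.2 CPM and at 70.2, 49.5 and 73.5 CPM. Atf3, a stress-induced factor, was the lower member, at 20.1, 22.7 and 30.1 CPM and at 4.85, 11.0 and 11.7 CPM. None passed in either test. The list levels were -0.08 to 0.10 in Runx2wt and 0.39, 0.25 and 0.38 in Runx2ko.

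**Figure D5:**
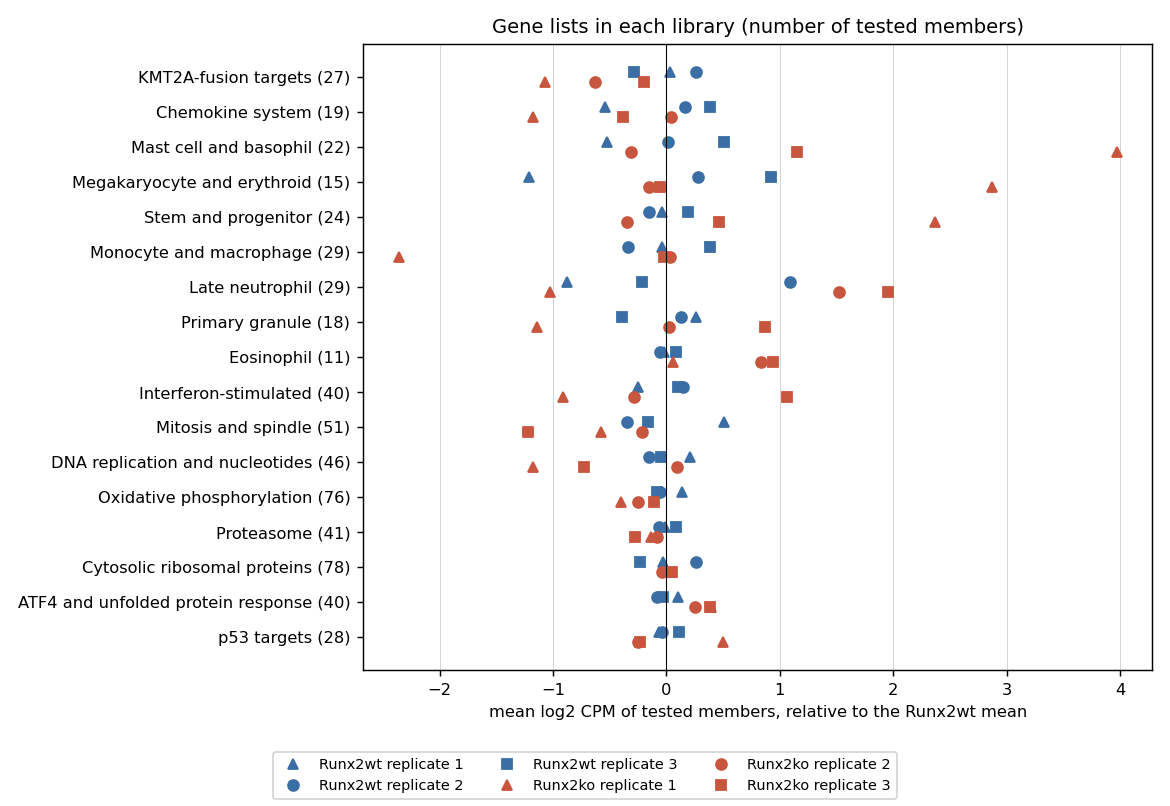
Mean log2 CPM of the tested members of each gene list in each library, relative to the mean of the 3 Runx2wt libraries, with Runx2wt in blue, Runx2ko in red, and the number of tested members in brackets. Runx2ko replicate 1 (red triangle) reaches 3.97 for mast cell and basophil genes and -2.36 for monocyte and macrophage genes, and the mitosis list is lowest in Runx2ko replicate 3 at -1.22.

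Among the genes that DESeq2 called in both fits were several of iron, lipid and nucleotide metabolism. Fth1, the ferritin heavy chain that stores iron, was at 6765, 5446 and 7728 CPM in Runx2wt against 3129, 3716 and 4025 CPM in Runx2ko (log2 fold change -0.88, SE 0.17, and -0.78, SE 0.19, without replicate 1; DESeq2 adjusted p = 0.00786 and 0.0107). Plin2, which coats lipid droplets, was at 295.0, 478.6 and 693.9 CPM and at 117.7, 254.8 and 201.6 CPM (DESeq2 adjusted p = 0.0440 and 0.0423). Impdh1, an enzyme of guanine nucleotide synthesis, was higher, at 11.5, 8.87 and 10.0 CPM and at 45.3, 19.8 and 24.4 CPM (DESeq2 adjusted p = 0.0101 and 0.0423). Ces2g, a carboxylesterase, was at 2.23 to 5.82 CPM in Runx2wt against 29.4, 17.3 and 22.2 CPM in Runx2ko (DESeq2 adjusted p = 0.000172 and 0.00924). For each of these genes the groups did not overlap, but the rule that picked them required this, so it is no further support. Groups did not overlap for 9.68% of all genes with all libraries and 19.2% without replicate 1. No gene named in this paragraph passed with edgeR.

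A further set of called genes encodes surface, secreted and regulatory proteins. Slpi, a secreted inhibitor of neutrophil proteases chosen after its values were seen, was at 297.7, 409.9 and 388.4 CPM in Runx2wt against 741.4, 758.0 and 643.4 CPM in Runx2ko (log2 fold change 0.97, SE 0.20, and 0.94, SE 0.22; DESeq2 adjusted p = 0.0159 and 0.0176). Ifitm1, an interferon-induced membrane protein, was at 954.1, 1323 and 788.4 CPM and at 1837, 2101 and 1912 CPM (DESeq2 adjusted p = 0.0172 and 0.00714). Serpinb6a, an intracellular protease inhibitor, was lower, at 100.6 to 103.5 CPM and at 42.7, 32.7 and 56.6 CPM (log2 fold change -1.21, SE 0.21, and -1.20, SE 0.24; DESeq2 adjusted p = 0.00359 and 0.00712). The 3 Runx2ko libraries agreed closely for Slpi and Ifitm1, Runx2ko replicate 1 included. Brpf3, a scaffold of histone acetyltransferase complexes, was at 19.9 to 30.5 CPM and at 45.3, 55.2 and 51.0 CPM (DESeq2 adjusted p = 0.0360 and 0.0401). Tbc1d10c, a Rab GTPase regulator of leukocytes, was at 8.07 to 8.87 CPM and at 69.5, 20.9 and 22.2 CPM (DESeq2 adjusted p = 0.00469 and 0.0123). EdgeR called no gene of this set in either fit.

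Without Runx2ko replicate 1, DESeq2 also called genes that did not pass with it. Mtmr4, a lipid phosphatase of endosomes, was at 40.9 to 48.2 CPM in Runx2wt against 51.4, 93.6 and 87.3 CPM in Runx2ko (DESeq2 adjusted p = 0.00445). Tapbpl, which edits peptides on MHC class I, was at 27.9 to 39.5 CPM and at 35.6, 74.2 and 75.3 CPM (DESeq2 adjusted p = 0.0057). Fmnl2, a formin that elongates actin, was at 1.69 to 3.90 CPM and at 3.88, 15.8 and 11.1 CPM (DESeq2 adjusted p = 0.00189). Among those lower, Wfdc17, a secreted protein of macrophages, was at 628.0 to 1010 CPM and at 13.6, 260.5 and 370.8 CPM (DESeq2 adjusted p = 0.00639), and Myo6, a motor protein, at 17.8 to 39.1 CPM and at 14.2, 5.71 and 9.76 CPM (DESeq2 adjusted p = 0.00714). None of these 5 passed with edgeR.

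Spp1, which encodes osteopontin and is a target of RUNX2 in bone, was at 833.3, 260.2 and 1570 CPM in Runx2wt against 45.3, 312.3 and 269.9 CPM in Runx2ko. The groups overlapped, because Runx2wt replicate 2 lay below Runx2ko replicates 2 and 3, and the log2 fold change of -2.08 and -1.61 without Runx2ko replicate 1 did not pass (edgeR adjusted p = 0.579 and 0.495). Of 10 tested target genes of the oestrogen receptor, to which 4-OHT also binds, none was higher or lower without overlap with all libraries. Over all genes, 4.95% were higher and 4.73% lower. Without replicate 1, 2 targets were higher and 2 lower, where 9.55% and 9.67% of all genes were. Their median was 0.139 and 0.273. Igfbp4, the member with the smallest p, was at 977.6, 694.5 and 407.9 CPM in Runx2wt against 2071, 977.4 and 1604 CPM in Runx2ko and did not pass.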

How the data were processed

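RNA of 9 libraries in 3 groups of 3 was made into QuantSeq 3′ tag libraries, per the labels' protocols, and the submitters' processing notes name FastQC, STAR, DESeq2 and GRCm38. Versions, the counting tool, its annotation and its use of strand are not stated there. The authors deposited raw counts per gene, which entered the tests as they stood, and a second table that equals those counts divided by 1 constant per library (0.7309 to 1.272), used only as an alternative. Gene symbols came from GENCODE M21 and matched 21042 of 21159 identifiers.

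Counts were tested with edgeR 4.0.16 (quasi-likelihood F-test, TMM scaling, filterByExpr, Benjamini-Hochberg adjustment, threshold 0.05) in R 4.3.3. All 9 libraries, or the 8 without Runx2ko replicate 1, shared 1 estimate of the spread. DESeq2 1.42.0 and limma 3.58.1 served as alternatives, DESeq2 on all genes with its own filter. Standard errors were derived from the F statistic. CPM used TMM-scaled library sizes and log2 CPM a prior count of 1. The edgeR steps were tested on simulated data. The labels call the samples independent biological replicates, and libraries of a group differed by more than counting noise (the lowest chi-square divided by genes was 13.7).

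The compared libraries and the gene lists were chosen with earlier results of these data known, so list counts are descriptions and no list was tested. Genes named were a fixed panel, the genes that passed with edgeR, up to 15 per direction that passed with DESeq2 without group overlap, the strongest non-overlapping genes of at least 10 CPM, and up to 4 members per list by smallest p. Genes outside these are said to have been chosen after their values were seen.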

Additional observations from a re-analysis of the deposited data

How the results depend on the processing

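With all 6 libraries, edgeR called 0 genes, and 0 to 5 when 1 replicate at a time was left out, the 5 being without Runx2ko replicate 1. The count was 48 with DESeq2, 67 with DESeq2 minus that library, 2 with the 5 transformed libraries alone, 1 with limma-voom quality weights (higher) and 1 (lower) with limma on the authors' normalized values at a pseudocount of 5. The last 2 calls were Itgal and Hoxa11. It was 0 with the 6 transformed libraries alone and with the other 7 alternatives, which kept every library. Without Runx2ko replicate 1 the 5 calls became 6 to 28 when a Runx2wt replicate was also left out (6, 28 and 13 without replicates 1, 2 and 3), 67 with DESeq2, 7 with limma-voom and 292 with no filter on low counts. The cause was not tested. The last pair of alternatives was added after seeing the data: the 5 transformed libraries alone left 2 calls, and a replicate block left 2.

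Same-numbered samples deviated from their group means together at r = 0.07, 0.032 and -0.046, and differently numbered ones at -0.109 to 0.13. The Runx2ko mean includes replicate 1, which stands apart, so these values cannot decide whether same-numbered samples share an origin. With the replicate block, 0 genes passed with all libraries and 2 without Runx2ko replicate 1, and Runx2 differed by -0.945 and -0.289. Runx2 did not pass under any alternative and ranged from -1.149 to -0.282 log2 units. Of 1477 pairs of a named gene and an alternative, 1385 kept direction and call, 70 newly passed and 22 changed sign, and no call could be lost because edgeR made none with all libraries. Ccl9, at 0.09 with all libraries, turned to -1.573 without Runx2ko replicate 1 and -0.108 without Runx2wt replicate 1 (range -1.573 to 0.580 with 1 replicate left out), and to -1.549 (5 libraries), -1.571 (DESeq2 minus that library), -0.677 (limma-voom), -1.486 (quality weights), -0.406 (replicate block), -1.764 (replicate block minus that library), -0.652 and -0.647 (authors' values, both pseudocounts). Cxcr4 turned to 0.424, 0.439, 0.422 and 0.443 in the 4 fits that lack Runx2ko replicate 1 and to 0.013 with quality weights (range -0.459 to 0.424 with 1 replicate left out). Cbfb turned to 0.016 and 0.018 without Runx2ko replicates 2 and 3, Cdkn1a to 0.026 and 0.089 without Runx2ko and Runx2wt replicate 3, and Meis1 to 0.110, 0.041 and 0.172 without Runx2ko replicate 2, Runx2ko replicate 3 and Runx2wt replicate 2. With 1 replicate left out these 3 ranged from -0.151 to 0.018, from -0.808 to 0.089 and from -0.420 to 0.172. List medians moved beyond the spread in 138 of 880 pairs. Depth limits low genes, so that a count of 0 allows up to 3 counts per library.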

Other observations

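Low levels of some genes from other cell types were highest in Runx2ko replicate 2. Of the genes given here, Cd5l and Ighg3 were chosen after their values were seen. C1qa, a complement gene of macrophages, was at 0.941, 0.277 and 1.67 CPM in Runx2wt against 0.647, 23.2 and 4.07 CPM in Runx2ko. C1qc, a further complement gene, was at 3.05 to 5.83 CPM and at 1.62, 15.8 and 14.6 CPM, so Runx2ko replicates 2 and 3 were alike. Cd5l, also of macrophages, was at 0.277 to 0.565 CPM and at 0.324, 13.3 and 2.98 CPM. Ighg3, an antibody gene of plasma cells, was at 0.565 to 0.835 CPM and at 0.970, 39.4 and 0.271 CPM. DESeq2 called C1qa, Cd5l and Ighg3 without Runx2ko replicate 1 (adjusted p = 0.00924, 0.0446 and 0.0175) and did not call C1qc (adjusted p = 0.0502). For Ighg3 the groups overlapped.

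Runx2ko replicate 1 held more RNA of genes of some other lineages than the remaining transformed libraries. Its mean level relative to Runx2wt was 3.97 log2 units for mast cell and basophil genes, 2.87 for megakaryocyte and erythroid genes and 2.37 for stem and progenitor genes. Other lists did not rise there. Eosinophil genes were at 0.06, against 0.83 and 0.94 in Runx2ko replicates 2 and 3, and dendritic cell and MHC class II genes at -0.13. Gzmb, a granzyme also made by mast cells and chosen after its values were seen, was at 2319 CPM in that library and at 0.753 to 15.7 CPM in the other transformed libraries. Thy1, a surface protein of T cells and some progenitors chosen in the same way, was at 4.70, 36.3 and 12.8 CPM in Runx2wt against 71.5, 127.5 and 54.2 CPM in Runx2ko, without overlap (DESeq2 adjusted p = 0.0441 with all libraries and 0.357 without Runx2ko replicate 1). The highest Thy1 value was thus in Runx2ko replicate 2 and not in replicate 1.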
